A study of Homo sapiens with 6 samples.

Results

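PSMB8, PSMB9 and PSMB10, the catalytic subunits of the immunoproteasome, and PSME1, PSME2, PSME3 and PSME4, the proteasome activators, were described in MDA-MB-231 cells with and without knockdown of CALR. These 7 genes were taken by symbol from the 31582 genes of the deposited count table, and all 7 were among the 16394 genes that passed the filter on low counts. MDA-MB-231 is an established human breast cancer line of mesenchymal character that lacks hormone receptors. Knockdown cells carried an shRNA against CALR, which encodes the chaperone calreticulin of the endoplasmic reticulum, and control cells carried a construct labelled NTC. Both groups had 3 libraries, and both were cultured in DMEM with FBS and collected before confluence. The labels name no added cytokine, and they leave unsaid whether replicates are different cultures, transductions or hairpins. All p-values therefore measure the spread between these libraries, which may be technical.

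The proteasome is a barrel-shaped protease whose inner chamber is closed by gated rings. In the immunoproteasome, PSMB8 takes the place of PSMB5, PSMB9 that of PSMB6 and PSMB10 that of PSMB7, which shifts the cleavage preference towards peptides that fit MHC class I molecules. PSME1 and PSME2 form a mixed ring, PA28 alpha and beta, that opens the gate, while PSME3 forms a ring of its own (PA28 gamma) found mainly in the nucleus. PSME4 (PA200) is a large single-chain activator. Interferon gamma is the classical inducer of PSMB8, PSMB9, PSMB10, PSME1 and PSME2, but not of PSME3 or PSME4. Peptides from the proteasome are carried into the endoplasmic reticulum by TAP1 and TAP2 and loaded there onto class I molecules with the help of calreticulin.

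The library totals were between 34639090 and 42425310 counts. CALR itself was at 493, 66.4 and 110 CPM (counts scaled to a common library size) in knockdown replicates 1 to 3, against 1213, 979 and 926 CPM in the controls. Replicate 1 kept 47.5% of the control mean, replicate 2 kept 6.39% and replicate 3 kept 10.6%, so the depth of the knockdown differed widely within the group. Its log2 fold change was -2.22 ± 0.64 (SE), and the quasi-likelihood test of edgeR gave an adjusted p of 0.209. VIM, CD44, AXL and MSN, genes typical of this line, summed to 4186 to 5386 CPM in knockdown and 3053 to 3423 CPM in control libraries. Of 13 blood cell markers, 10 were in the count table and 2 passed the filter. The 10 summed to 4.45 to 6.92 CPM in knockdown and 5.68 to 6.22 CPM in control libraries. Fibroblast and endothelial markers summed to 14.1 to 20.9 CPM in knockdown and 11.9 to 21.3 CPM in control libraries, and 6 of 10 passed the filter. Luminal breast markers summed to 406 to 496 CPM in knockdown and 358 to 510 CPM in control libraries, and the hormone receptor ESR1 averaged 0.456 CPM in knockdown and 0.495 CPM in control libraries. Their part in the results was not tested.

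Of the 5 interferon-inducible members, 4 share a short stretch of promoter sequence, and PSMB9, PSME3 and PSME4 do not show it in the window searched. RefSeq promoter windows (GRCh38.p14, 250 bases before to 50 after the start) existed for all 7 members, with 2 starts for PSMB8. The core of the element bound by interferon regulatory factors, which reads GAAA, any 2 bases and GAAA again, was searched on both strands. It was found in 3.57% of 35116 windows of all genes, and in 4.38% of 27305 genes. It occurred in PSMB8 (the second start only), PSMB10, PSME1 and PSME2, and in the neighbouring TAP1. The stretches around the matches are shown on the gene's own strand, with the match in capitals.
PSMB8, chr6:32844032-32844061, minus strand: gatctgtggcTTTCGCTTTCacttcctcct
PSMB10, chr16:67936852-67936881, minus strand: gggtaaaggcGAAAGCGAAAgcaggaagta
PSME1, chr14:24136189-24136218, plus strand: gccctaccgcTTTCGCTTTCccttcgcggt
PSME2, chr14:24146619-24146648, minus strand: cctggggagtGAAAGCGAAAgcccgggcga
TAP1, chr6:32853813-32853848, minus strand: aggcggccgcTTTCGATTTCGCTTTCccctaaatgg
All 4 member matches lay close to the start. That of PSMB8 ran from 4 bases before the start to base 6 of the transcript, and that of PSME1 lay at bases 6 to 15 of the transcript. In PSMB10 the match ran from 21 to 12 bases before the start, and in PSME2 from 28 to 19 bases before it. In each of the 4, the unspecified pair of bases was GC on the strand that reads GAAA. TAP1 had a pair of overlapping matches, 134 to 119 bases before its start.

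Genomic position links some of these genes. PSMB8 (chr6:32840717-32844703, minus strand) and PSMB9 (chr6:32844136-32859585, plus strand) overlap at their ends in the class II region of the MHC. TAP1 lies between PSMB8 and the RefSeq start of PSMB9. PSMB9 and TAP1 are read in opposite directions from starts 488 bases apart, and the TAP1 matches lie between both starts, outside the PSMB9 window. PSME1 (chr14:24136158-24138967, plus strand) and PSME2 (chr14:24143362-24147570, minus strand) are also neighbours. PSME2 and RNF31, a ubiquitin ligase gene, start 265 bases apart, so that the PSME2 match is in both windows. PSMB10 is at chr16:67934502-67937087 (minus strand), PSME3 at chr17:42824385-42843758 (plus strand) and PSME4 at chr2:53864067-53970840 (minus strand). These gene bounds are those of GENCODE 29 on GRCh38. The upstream sequences of PSMB10 and PSME2, which hold the match, and of PSME3, which does not, are given to show their surroundings.
PSMB10, chr16:67936851-67937100, minus strand: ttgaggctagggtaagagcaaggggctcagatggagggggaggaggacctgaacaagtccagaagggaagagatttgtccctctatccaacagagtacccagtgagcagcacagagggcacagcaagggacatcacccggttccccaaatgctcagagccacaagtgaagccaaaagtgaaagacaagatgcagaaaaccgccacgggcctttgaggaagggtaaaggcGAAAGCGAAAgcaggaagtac
PSME2, chr14:24146611-24146860, minus strand: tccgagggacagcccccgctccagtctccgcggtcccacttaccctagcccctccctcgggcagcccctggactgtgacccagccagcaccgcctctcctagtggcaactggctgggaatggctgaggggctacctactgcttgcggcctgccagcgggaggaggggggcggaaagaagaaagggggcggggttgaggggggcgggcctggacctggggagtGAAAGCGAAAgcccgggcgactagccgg
PSME3, chr17:42833147-42833396, plus strand: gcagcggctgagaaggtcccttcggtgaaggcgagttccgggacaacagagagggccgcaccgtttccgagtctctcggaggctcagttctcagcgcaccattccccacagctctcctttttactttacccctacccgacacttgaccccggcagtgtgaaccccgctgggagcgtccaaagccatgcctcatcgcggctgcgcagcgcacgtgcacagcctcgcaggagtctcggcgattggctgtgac

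Other motifs did not follow the same split. The STAT-type motif TTCNNNGAA, present in 7.66% of all windows, occurred at the second start of PSMB8 and in PSME3. The NF-kB-type motif, searched as GGG, any 2 bases and TTTCC and present in 1.91% of windows, was in none of the 7 members and in TAP1. The motif TGACNNNGC, of the type bound by NFE2L1, which drives proteasome genes when the protease is inhibited, is in 13.3% of windows and occurred in PSMB9, PSME1, PSME2 and PSME4. A match is a string of letters and does not show that a factor was bound.

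**Figure D1:**
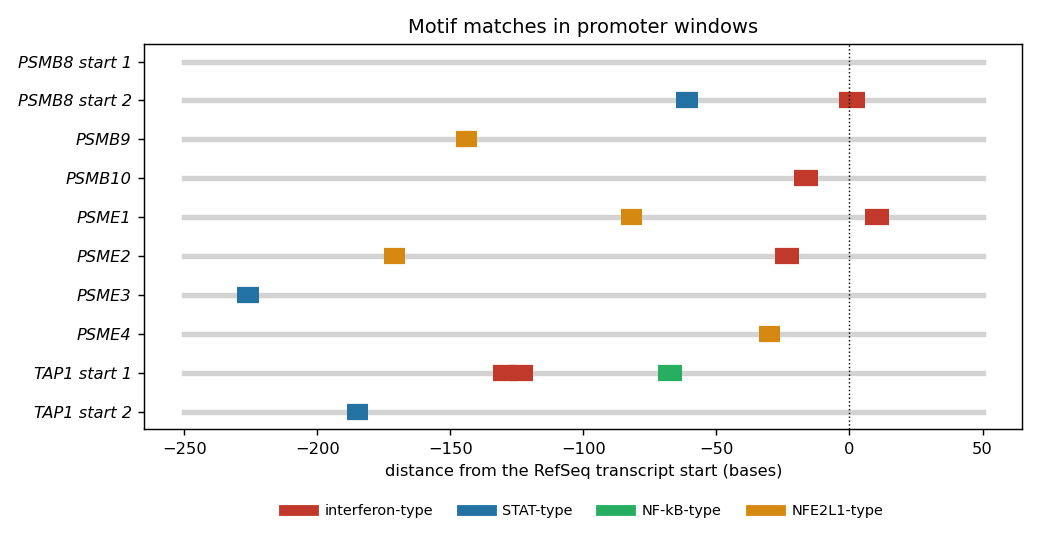
Matches to 4 motifs in the promoter windows of the 7 members and of TAP1, as distance in bases from the RefSeq transcript start (grey bars, 250 bases before to 50 after; coloured blocks, matches on either strand). The interferon-type matches of PSMB8, PSMB10, PSME1 and PSME2 sit next to the start, and PSMB9, PSME3 and PSME4 have none.

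Across the 7 members, PSME1 and PSME2 were higher in every knockdown library than in any control, PSMB8, PSMB9, PSMB10 and PSME3 were higher in knockdown replicates 1 and 3 only, and PSME4 had no common direction. All 7 log2 fold changes were positive, against 49.9% of all genes tested, with a median of 0.44 against -0.00072 over all genes. By the quasi-likelihood test of edgeR, 0 of the 7 had an adjusted p under 0.05, as had 0 of the 16394 genes (0%). At an unadjusted p under 0.05 in the same edgeR test, 3 of 7 members were higher and 0 were lower, against 8.17% of all genes higher and 7.36% lower. With DESeq2, 1 of 7 members passed the adjusted threshold, against 3.23% of genes, and with edgeR on unfiltered counts 1 of 7 passed it, against 3.13% of genes. In bulk RNA, a change in the fraction of cells that transcribe a gene and a change in RNA per cell cannot be told apart.

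**Figure D2:**
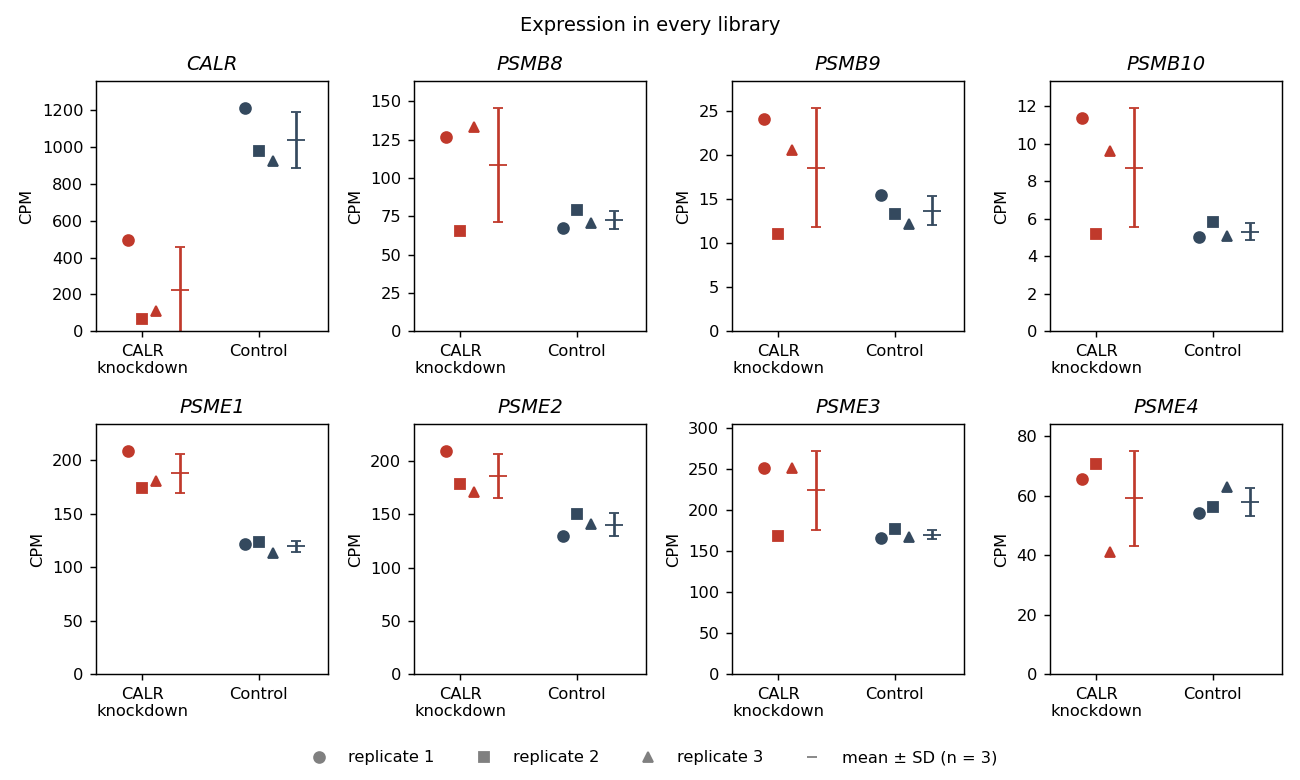
CPM of CALR and of the 7 members in each library (knockdown left, control right; marker shape gives the replicate number, and bars the mean ± SD of 3 libraries; the lower arm for CALR stops at 0). In PSMB8, PSMB9, PSMB10 and PSME3 knockdown replicates 1 and 3 lie above the controls. Replicate 2 lies below all controls in PSMB8 and PSMB9 and among them in PSMB10 and PSME3. In PSME1 and PSME2 all 3 knockdown libraries lie above all 3 controls.

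PSMB8, which carries the chymotrypsin-like activity of the immunoproteasome, was at 127, 65.4 and 133 CPM in knockdown replicates 1 to 3, against 67.6, 79.0 and 70.6 CPM in the controls. Replicates 1 and 3 were above every control and replicate 2 was below every control, so the groups overlapped. Its log2 fold change was 0.58 ± 0.26 (SE, 3 against 3 libraries), with an edgeR adjusted p of 0.325.

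PSMB9, the subunit that replaces the caspase-like site, was at 24.1, 11.003 and 20.6 CPM in knockdown replicates 1 to 3, against 15.5, 13.4 and 12.2 CPM in the controls. Again replicates 1 and 3 exceeded all controls and replicate 2 was below them all. This gave a log2 fold change of 0.44 ± 0.29 (SE), with an edgeR adjusted p of 0.473.

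PSMB10, which replaces the trypsin-like site, was the least abundant member. It was at 11.4, 5.19 and 9.60 CPM in knockdown replicates 1 to 3, against 5.03, 5.82 and 5.07 CPM in the controls. Replicate 1 was at 215% of the control mean and replicate 3 at 181%, whereas replicate 2, at 97.9%, was inside the control range. Its log2 fold change was 0.72 ± 0.30 (SE), with an edgeR adjusted p of 0.304. The value was 0.44 on log2(FPKM + 1), 0.51 on log2(FPKM + 0.1) and 0.56 on counts with library size alone. PSMB10 shares 34.8% of its exon bases, on the same strand, with another row of the table, CTC-479C5.12. That row was at 14.3, 8.32 and 10.9 CPM in knockdown libraries, against 7.62, 6.20 and 6.01 CPM in controls, with no overlap between the groups. With both rows summed, the values were 25.7, 13.5 and 20.5 CPM in knockdown and 12.6, 12.02 and 11.1 CPM in control libraries. The groups were then apart, with a log2 fold change of 0.74 ± 0.25 (SE) and an edgeR adjusted p of 0.241. This sum holds all reads of CTC-479C5.12, whose groups were apart on their own. It therefore cannot decide where replicate 2 stands for PSMB10. How reads of this locus were assigned is not known.

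The 2 MHC-encoded members have a similar limit. They overlap each other on opposite strands, over 4.64% of the exon bases of PSMB8 and 4.52% of those of PSMB9. PSMB8-AS1, a noncoding gene, overlaps 20.6% of the exon bases of PSMB8 on the other strand and 5.66% of those of PSMB9 on the same strand. It was at 2.37, 1.02 and 3.30 CPM in knockdown libraries, against 2.22, 1.40 and 1.54 CPM in controls, a low level beside either gene. TAP1, which shares its promoter region with PSMB9, was at 91.8, 66.9 and 129 CPM in knockdown libraries, against 63.4, 79.7 and 71.5 CPM in controls. Replicates 1 and 3 of the knockdown were again above all controls, and replicate 2 was between them (log2 fold change 0.42 ± 0.24, edgeR adjusted p 0.415).

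PSME1, the alpha subunit of PA28, was at 209, 174 and 181 CPM in knockdown replicates 1 to 3, against 122, 123 and 114 CPM in the controls. The lowest knockdown library was at 145% of the control mean, and the groups did not overlap. The log2 fold change was 0.65 ± 0.15 (SE), a ratio of means of 1.57, and its unadjusted p of 0.00193 ranked 189 of 16394 genes in edgeR. The adjusted p was 0.168 in edgeR and 0.011 in DESeq2, where it was the member past the threshold.

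PSME2, the beta subunit, was at 209, 178 and 171 CPM in knockdown replicates 1 to 3, against 129, 151 and 141 CPM in the controls. All knockdown libraries were above all controls, by a narrower margin than for PSME1. For PSME2 the log2 fold change was 0.41 ± 0.16 (SE), with an edgeR adjusted p of 0.273. Of all genes tested, 11.3% had every knockdown library above every control, as 2 of the 7 members did.

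The partners also differed in their balance. The log2 ratio of PSME1 to PSME2 counts within a library was 0.0149 ± 0.0633 in knockdown against -0.229 ± 0.120 in control libraries (n = 3 each, SD), a difference of 0.24. The groups did not overlap, and the exact two-sided permutation test gave p = 0.1, the smallest that 3 against 3 libraries allow. This ratio was chosen after the values had been seen. As deposited FPKM, which scales a count by gene length and library size, PSME1 made up 55.2% ± 1.08 of the pair's sum in knockdown against 51.0% ± 2.07 in controls (SD, n = 3 each).

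The neighbours of this pair on chromosome 14 were higher as well. RNF31, which overlaps 6.03% of the exon bases of PSME2 on the other strand, was at 50.5, 41.7 and 48.3 CPM in knockdown libraries, against 29.9, 34.9 and 31.1 CPM in controls (log2 fold change 0.55 ± 0.17, edgeR adjusted p 0.218). The groups did not overlap. EMC9, a gene of the membrane insertion complex beside PSME1, was at 33.7, 18.4 and 26.6 CPM in knockdown libraries, against 17.5, 19.2 and 14.1 CPM in controls, and the groups overlapped through knockdown replicate 2. PSME2P2, a PSME2 pseudogene, had 0 to 3 counts per library.

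PSME3, the nuclear PA28 gamma, was at 252, 169 and 252 CPM in knockdown replicates 1 to 3, against 167, 177 and 167 CPM in the controls. Replicates 1 and 3 were at 148% of the control mean each and replicate 2 was at 99.3%, within the control range. Its log2 fold change was 0.40 ± 0.19 (SE), with an edgeR adjusted p of 0.348. The log2 ratio of PSME1 to PSME3 was -0.24 ± 0.26 in knockdown against -0.51 ± 0.05 in controls (SD, n = 3 each), a difference of 0.28. Its exact two-sided permutation p was 0.2, and knockdown replicate 3 overlapped the controls.

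PSME4, the PA200 activator, was at 65.8, 70.6 and 41.0 CPM in knockdown replicates 1 to 3, against 54.3, 56.2 and 63.1 CPM in the controls. Replicates 1 and 2 were above all controls and replicate 3 was below all of them. The log2 fold change was 0.03 ± 0.22 (SE), with an edgeR adjusted p of 0.957, and its sign turned with the library scaling (-0.08 with library size alone).

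PSMB8, PSMB9, PSMB10 and PSME3, 4 of the 7 members, shared an arrangement of libraries, with knockdown replicates 1 and 3 above all controls and replicate 2 not. Of all 16394 genes, 2337 (14.3%) had the same arrangement. Replicate 2 is the library with the least CALR left, at 6.39% of the control mean. Replicate 3 was close to it at 10.6%, and replicate 1 kept the most, at 47.5%. A relation of these members to the remaining CALR was not tested. Without replicate 2, the log2 fold changes were 0.85 for PSMB8, 0.71 for PSMB9, 0.99 for PSMB10, 0.71 for PSME1 and 0.57 for PSME3. All 5 then passed edgeR's adjusted threshold (adjusted p 0.0155, 0.0361, 0.0223, 0.0192 and 0.0234), as did 15.5% of all genes in that fit and 7.76% in the upward direction. PSME2 did not (adjusted p 0.071). Without knockdown replicate 1 none of the 7 passed, and the log2 fold changes of PSMB9 and PSMB10 were 0.21 and 0.48. What sets replicate 2 apart was not tested.

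**Figure D3:**
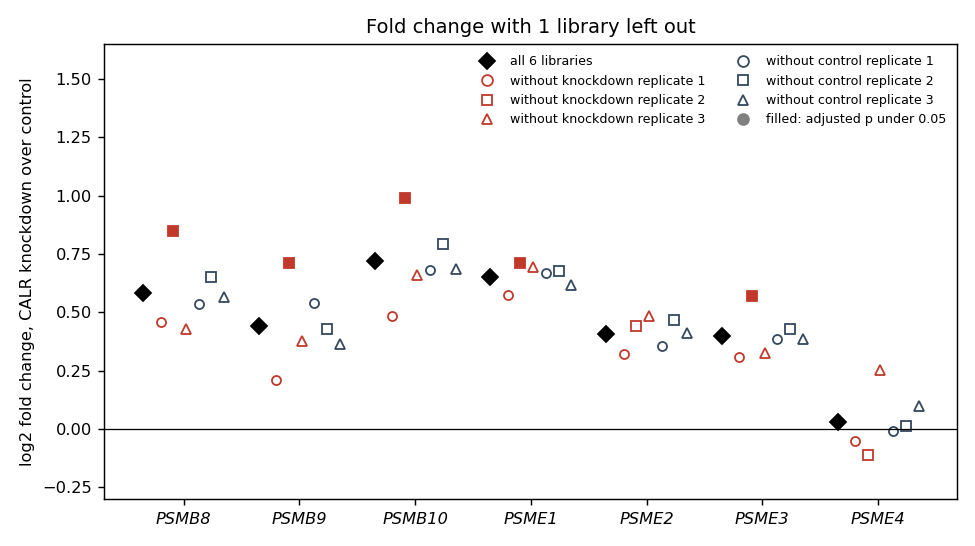
Log2 fold change of each member, knockdown over control, with all 6 libraries (black diamonds) and with 1 library left out (red for a knockdown library, blue for a control; filled symbols have an edgeR adjusted p under 0.05). The filled symbols are PSMB8, PSMB9, PSMB10, PSME1 and PSME3 without knockdown replicate 2, and PSME4 is the member whose sign turns.

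Per length, the activators of the PA28 alpha and beta pair were the most abundant members and PSMB10 the least. As deposited FPKM, PSME1 was at 138 ± 13.5 in knockdown and 95.6 ± 3.40 in control libraries, and PSME2 at 112 ± 14.6 in knockdown and 92.2 ± 8.74 in controls (SD, n = 3). PSMB8 followed at 61.8 ± 18.0 in knockdown and 45.7 ± 4.39 FPKM in control libraries, ahead of PSME3 at 44.3 ± 6.92 FPKM in knockdown and 37.0 ± 1.77 FPKM in control libraries. PSMB9 was at 17.9 ± 5.85 FPKM in knockdown and 14.5 ± 1.36 FPKM in control libraries. PSME4 was at 7.56 ± 2.48 FPKM in knockdown and 7.98 ± 0.836 FPKM in control libraries, and PSMB10 at 6.34 ± 2.08 FPKM in knockdown and 4.26 ± 0.404 FPKM in control libraries. The order of the means was the same in both groups. PSME1 and PSME2 overlapped in both groups, while PSMB8 and PSME3, and likewise PSME4 and PSMB10, overlapped in knockdown but not in control libraries.

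The catalytic subunits were set against the constitutive subunits whose places they take, a comparison in which library size cancels. The counterparts PSMB5, PSMB6 and PSMB7 were themselves higher in all 3 knockdown libraries than in any control. PSMB5 was at 302, 276 and 368 CPM in knockdown libraries, against 184, 265 and 232 CPM in controls (log2 fold change 0.47 ± 0.19, edgeR adjusted p 0.289). The log2 fold changes of PSMB6 and PSMB7 were 0.45 ± 0.20 and 0.41 ± 0.18 (edgeR adjusted p 0.33 and 0.319).

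Within a library, no pair shifted beyond its spread. The log2 ratio of PSMB8 to PSMB5 counts was -1.60 ± 0.43 in knockdown against -1.64 ± 0.17 in controls (SD, n = 3 each), and the exact permutation p was 1. The ratio of PSMB9 to PSMB6 was -3.66 ± 0.52 in knockdown and -3.61 ± 0.29 in control libraries, with an exact permutation p of 0.8. The ratio of PSMB10 to PSMB7 was -5.83 ± 0.61 in knockdown and -6.07 ± 0.11 in control libraries, with an exact permutation p of 0.7. In knockdown replicate 2 each of the 3 ratios was lower than in every other library. The smallest p that this exact test allows for 3 against 3 libraries is 0.1, which is above the threshold used for the genes. The test therefore could not have called a shift of any size, and it decides nothing about these ratios. With SDs of this size, a moderate shift could also lie within the spread.

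In FPKM, the immunoproteasome subunit was the minor one of each pair. PSMB8 made up 24.1% ± 5.18 of the sum of PSMB8 and PSMB5 in knockdown against 23.4% ± 2.11 in controls (SD, n = 3 each). PSMB9 made up 7.23% ± 2.55 of its pair with PSMB6 in knockdown and 7.30% ± 1.41 in control libraries. PSMB10 made up 1.47% ± 0.610 of its pair with PSMB7 in knockdown and 1.19% ± 0.0914 in control libraries. The spread was wider among knockdown libraries in all 3 pairs, from 18.3% in replicate 2 to 28.4% in replicate 1 for PSMB8.

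**Figure D4:**
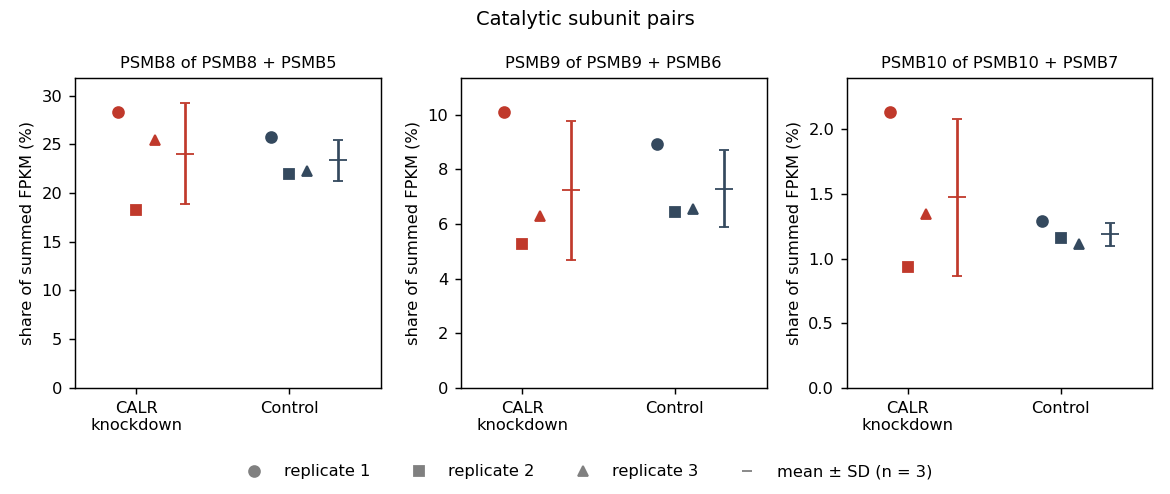
Share of each immunoproteasome subunit in the summed FPKM of its pair, in percent, per library (knockdown left, control right; bars are the mean ± SD of 3 libraries). Knockdown replicate 2 has the lowest share in each panel, and the group means lie close together, at 24.1% in knockdown and 23.4% in controls for PSMB8.

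In the rest of the proteasome, most log2 fold changes were positive, against 49.9% of those of all genes tested. The median of the 3 constitutive counterparts was 0.45, level with the 0.44 of the members. Those of the other core subunits, the regulatory particle and the assembly factors were below it. The 11 other subunits of the core had a median log2 fold change of 0.26. At an unadjusted edgeR p under 0.05, 1 was higher and 1 lower, against 8.17% and 7.36% of all genes. The lower one was PSMA1, an alpha ring subunit, at 25.3, 25.0 and 21.2 CPM in knockdown libraries, against 42.7, 49.4 and 49.6 CPM in controls (log2 fold change -0.99 ± 0.17, edgeR adjusted p 0.145). A second row with the symbol PSMA1 held more reads, at 133, 65.6 and 66.1 CPM in knockdown libraries, against 125, 153 and 147 CPM in controls. Its groups overlapped through knockdown replicate 1 (log2 fold change -0.68 ± 0.28, edgeR adjusted p 0.294). PSMA6 was the higher one, at 0.51 ± 0.20, and PSMB1 had 0.34 ± 0.17. The PSMA6 row held few reads, 8.24 CPM on average in knockdown and 5.77 CPM in control libraries, while the overlapping row RP11-561B11.2 had 423 CPM in knockdown and 306 CPM in control libraries.

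The regulatory particle, which recognises ubiquitin and unfolds substrates, had 4 of 18 genes higher and 0 lower at an unadjusted edgeR p under 0.05. The shares of all genes at that p were 8.17% higher and 7.36% lower. Of the particle's 18 log2 fold changes, 16 were positive, against 49.9% of those of all genes, and the median was 0.25. The 3 with the smallest p were the ATPases PSMC5 (0.44 ± 0.14) and PSMC3 (0.44 ± 0.16) and the scaffold subunit PSMD1 (0.43 ± 0.15), with edgeR adjusted p between 0.226 and 0.266. Of 11 assembly factors, inhibitors and partners tested, 0 were below an unadjusted edgeR p of 0.05 in either direction, against 15.5% of all genes. Their median was 0.06. The smallest p values there belonged to the inhibitor PSMF1 (0.28 ± 0.16), FAM192A (0.24 ± 0.15), whose product binds PSME3, and PAAF1 (0.24 ± 0.21). The tissue-restricted subunits PSMB11 of the thymus and PSMA8 of the testis were at or near 0 and were not tested.

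**Figure D5:**
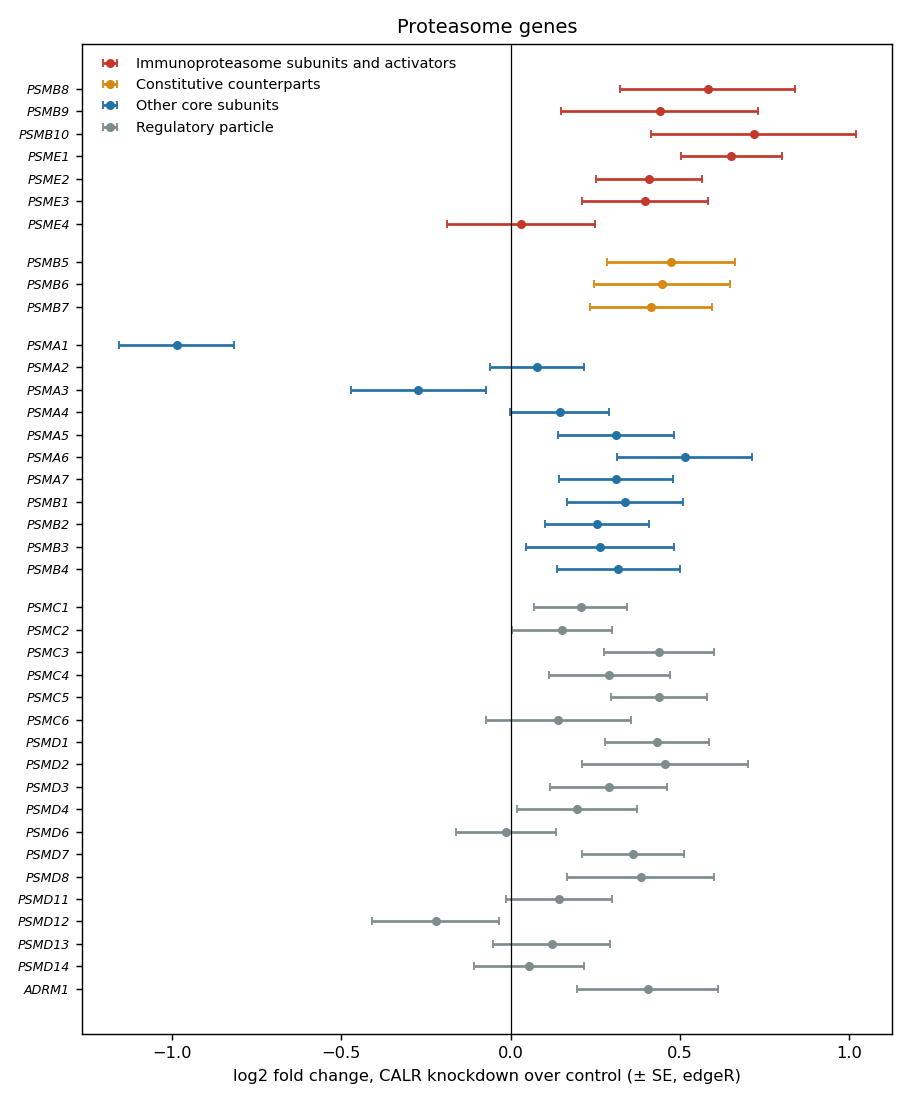
Log2 fold change with its SE, knockdown over control, for the 7 members, their 3 constitutive counterparts and the other subunits of the core and the regulatory particle. The members run from 0.03 for PSME4 to 0.72 for PSMB10. PSMA1 lies furthest below 0, at -0.99 for the first of its 2 rows, and its second row, at -0.68, is not drawn.

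Genes that take up and present the peptides were split. The 15 genes of peptide transport, trimming and class I presentation had a median log2 fold change of 0.42. At an unadjusted edgeR p under 0.05, 3 were higher and 1 lower, against 8.17% and 7.36% of all genes. The lower one was CALR itself. For PDIA3, the oxidoreductase that binds calreticulin, the log2 fold change was 0.81 ± 0.23, TAPBP (tapasin, which bridges TAP and class I) had 0.53 ± 0.16, and B2M, the class I light chain, had 0.66 ± 0.20 (SE). Their adjusted p values in edgeR were above 0.05. PDIA3, TAPBP and B2M were higher in every knockdown library than in any control, as PSME1 and PSME2 were.

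Along the interferon gamma route to these genes, 12 of 14 listed genes were tested. At an unadjusted edgeR p under 0.05, 1 was higher and 1 lower, against 8.17% and 7.36% of all genes. NLRC5, the transactivator of class I genes, was at 26.0, 17.4 and 23.1 CPM in knockdown libraries, against 11.19, 11.8 and 11.1 CPM in controls. The groups did not overlap, and the log2 fold change was 0.96 ± 0.21 (SE; edgeR adjusted p 0.159). IFNGR1, the ligand-binding receptor chain, was lower, at 39.3, 40.4 and 47.3 CPM in knockdown and 59.9, 51.5 and 56.3 CPM in control libraries (log2 fold change -0.40 ± 0.16, edgeR adjusted p 0.291). SOCS3, a feedback inhibitor, had a log2 fold change of 0.56 ± 0.25. IRF1, a factor that binds the motif shown above and named after its values were seen, had a log2 fold change of 0.12 ± 0.25 (SE; edgeR adjusted p 0.835). It was at 50.3, 32.4 and 62.2 CPM in knockdown libraries, against 39.1, 51.0 and 43.6 CPM in controls, and the groups overlapped.

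Of 8 NF-kB and NFE2L1/NFE2L2 pathway genes, 0 were higher and 1 was lower at an unadjusted edgeR p under 0.05, against 8.17% and 7.36% of all genes. That gene was DDI2, the protease that activates NFE2L1, at 15.1, 17.3 and 11.7 CPM in knockdown libraries, against 25.7, 27.5 and 29.1 CPM in controls (log2 fold change -0.90 ± 0.20, edgeR adjusted p 0.165). NFE2L1 had 0.37 ± 0.18 and NFKB2 had 0.28 ± 0.18 (SE).

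Profiles over the 6 libraries were compared by the root mean square difference of log2 CPM, each gene centred on its own mean, among 12417 genes with a mean log2 CPM of at least 1. Among the members, PSMB8 and PSMB10 were the closest pair at 0.112, with 0.314% of genes nearer to PSMB8. PSME1 and PSME2 followed at 0.145, with 1.66% of genes nearer to PSME1. PSMB8 and PSME3 differed by 0.161, whereas PSMB8 and PSME1 differed by 0.30 and PSMB10 and PSME4 by 0.60. The median difference of all genes from a member lay between 0.34 and 0.50.

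The genes nearest to each member were mostly of other kinds. PSMB8 was nearest to DHRS12 (0.0300) and DTD1 (0.0384), PSMB9 to FAM20C (0.0256) and MOB3A (0.0473), and PSMB10 to PHLDA3 (0.0329) and AP1M2 (0.0514). PSME1 was nearest to VIM (0.0304), the mesenchymal intermediate filament gene, and to KIAA0391 (0.0459). VIM was at 3177, 2491 and 2759 CPM in knockdown libraries, against 1840, 1839 and 1697 CPM in controls. PSME2 was nearest to LL22NC03-80A10.6 (0.0518) and RPA1 (0.0533), PSME3 to BID (0.0285) and PLA2G16 (0.0302), and PSME4 to CERS6 (0.0292) and LTB4R (0.0478). These values share the same 6 libraries and are a description.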

How the data were processed

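Polyadenylated RNA was sequenced in 6 libraries of MDA-MB-231 cells, 3 with CALR knockdown and 3 controls. The kit keeps the strand, per the labels' protocols. The submitters' processing notes name FastQC 0.9.5, TopHat2 and GRCh38. How reads were counted, with which strand setting and on which annotation, is not given in the sources used here, so reads of overlapping genes, on either strand, cannot be assigned with certainty. The authors deposited whole-number counts per gene for 31582 genes and FPKM values for 31356 genes. Where a symbol stood on more than 1 row (PSMA1, PSMA2), the first row was used.

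Counts were filtered with filterByExpr, scaled with TMM factors and tested in edgeR 4.0.16 (R 4.3.3) by quasi-likelihood, with no covariate. Benjamini-Hochberg adjustment ran over all 16394 genes, with a threshold of 0.05. A standard error is the size of the log2 fold change over the square root of the F statistic. Profiles used log2 CPM with a prior count of 2. Log2 ratios within a library had an exact two-sided permutation test over 3 against 3 libraries. The scripts were tested on simulated data. Libraries of a group differed by far more than sampling noise (chi-square per gene 105 to 199 between knockdown libraries and 11.8 to 48.1 between controls). Each was therefore counted as a library of its own, which does not show that they came from separate cultures.

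The members, gene lists and tests were chosen with earlier results of these data known. All members and CALR were named. From each list, the constitutive counterparts, the 3 genes with the smallest unadjusted p and genes a result turned on were named, and for each member the 2 most similar genes. Alternatives were DESeq2 size factors, library size alone, DESeq2 1.42.0 (530 genes called, 10 without an adjusted p), limma-voom with limma 3.58.1, no filter, a minimum CPM of 1 in every library, each library left out, a replicate block, limma on deposited FPKM as log2 with 1 or 0.1 added, and, added after seeing the data, removal of each library's trend with GC content, with and without the block (99.39% of tested genes and all members had a GC value). Promoter sequences were from RefSeq. The single values of 1 listed gene are not reported here.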

Additional observations from a re-analysis of the deposited data

How the results depend on the processing

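PSMB8, PSMB9, PSMB10, PSME1, PSME2 and PSME3 kept a positive log2 fold change under every alternative run, with the lowest value, 0.21, for PSMB9 without knockdown replicate 1. Their size did depend on the scaling. On log2(FPKM + 1) the log2 fold changes were 0.39 for PSMB8, 0.23 for PSMB9, 0.44 for PSMB10 and 0.24 for PSME3, against 0.58, 0.44, 0.72 and 0.40 with edgeR. With library size alone PSMB9 had 0.28 and PSME3 0.25, and on log2(FPKM + 0.1) both had 0.25. With the GC trend removed, the values were 0.43 for PSMB8, 0.43 for PSMB9 and 0.54 for PSMB10. They were 0.54 for PSME1, 0.32 for PSME2 and 0.33 for PSME3. In that edgeR fit 2 members had an unadjusted p under 0.05, as had 18.2% of all genes, against 15.5% in the main fit. PSMB10 had the largest value with edgeR, but PSME1 was above it with limma-voom, under both FPKM pseudocounts, with the GC trend removed together with the replicate block, and without knockdown replicate 1 or 3. The number of all genes past the adjusted threshold was 0 with edgeR, 530 with DESeq2, 988 with no low-count filter, 5 with limma on log2(FPKM + 1) and no filter, and 0 to 2604 when 1 library was left out. The members past it numbered 1 with DESeq2 and 1 with no low-count filter, PSME1 in both cases (adjusted p 0.011 and 0.0468), and 0 to 5 when 1 library was left out, the 5 without knockdown replicate 2. With 2 libraries in a group, the fit takes the spread from both groups together. Members at an unadjusted p under 0.05, which were 3 with edgeR, numbered 5 with no low-count filter and 1 with library size alone or with limma on FPKM under either pseudocount and with no filter. They numbered 1 to 6 when 1 library was left out, where 7.23% to 35.6% of all genes had such a p. With each gene centred within its group, the same-numbered libraries of both groups correlated at 0.20, -0.12 and -0.22. Differently numbered ones ranged from -0.20 to 0.36. Such centring makes the values balance around 0, so they cannot decide whether the numbers pair the libraries. With a replicate block, 1 member, PSME1, had an unadjusted p under 0.05 in edgeR (adjusted p 0.236), and 1 also with the GC trend removed together with the replicate block. PSME4 turned negative with library size alone (-0.084), limma-voom (-0.0063), a minimum CPM of 1 in every library (-0.0030), the replicate block (-0.0030), log2(FPKM + 1) with and without the filter (-0.11) and log2(FPKM + 0.1) (-0.13), and ranged from -0.11 to 0.25 when 1 library was left out. Library size alone moved the median of all genes by -0.13 and log2(FPKM + 0.1) moved it by -0.10. When 1 library was left out, the difference in log2 ratio ranged from -0.14 to 0.28 for PSMB8 to PSMB5, from -0.35 to 0.16 for PSMB9 to PSMB6 and from -0.078 to 0.53 for PSMB10 to PSMB7. The cause of these shifts was not tested. PSMB10, with 190 to 399 counts per library, is the member whose value depth limits most.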
